A study of Mus musculus with 21 samples.

Results

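The nuclear-encoded subunits of the mitochondrial respiratory chain were followed in RNA from mouse circumvallate taste buds. Members were the loci of the expression table that hold an annotated gene whose symbol begins with Nduf followed by a, b, c, s or v and a digit (complex I), is Sdha, Sdhb, Sdhc or Sdhd (complex II), begins with Uqcr (complex III), begins with Cox, a digit of 4 to 8 and a letter (complex IV), or begins with Atp5 (complex V). This rule found 86 gene symbols at 86 of 32052 loci: 37 in complex I, 4 in complex II, 8 in complex III, 17 in complex IV and 20 in complex V. No locus held more than 1 member symbol. Of the 86 symbols, 81 name subunits or their paralogues, 3 name pseudogenes (Atp5l-ps1, Atp5l-ps2 and Atp5l2-ps), and Atp5s and Atp5sl name proteins that are not counted as subunits here.

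The mice were wild-type C57BL/6J adults, 20 to 24 weeks old, in groups labelled Hungry, Satiated and Ad lib with 7 libraries each; whether a library is 1 mouse is not stated. The labels call the source circumvallate taste bud, and their protocol takes RNA from dissected circumvallate papillae. Each locus carries the same values for all 3 conditions in the table, so no contrast between Hungry, Satiated and Ad lib mice was possible, and every level below pools the 21 libraries. The table gives a mean, a variance and a fitted variance per locus and no value per library. A level is therefore written as a mean fragment number after the authors' scaling for library size, with an SD or CV (SD over mean) from the authors' variance, and with no test. By its values, that variance appears to be taken within sets of libraries. An SD or CV thus holds no spread between sets and cannot show steadiness across feeding conditions.

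The respiratory chain sits in the inner mitochondrial membrane. Complex I takes electrons from NADH and complex II from succinate; complex III passes them to cytochrome c, and complex IV to oxygen. Complexes I, III and IV pump protons, and complex V, the ATP synthase, lets them flow back to make ATP. Most subunits are encoded in the nucleus and imported, and all complexes but II also need subunits encoded in mitochondrial DNA. Type II taste cells release ATP as their transmitter, so mitochondria are of interest in this organ.

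The mean levels of all loci add up to 21881979 compatible fragments per library, those that fit a transcript of the annotation, of 23769781 in total. Taste bud markers were present: all 7 of the list were detected (a mean of at least 10 compatible fragments), among them Krt8 with 37058 fragments and Gnat3 with 24576. All 6 keratinocyte markers were also detected, with 41906 fragments for Krt6a, 19096 for Krt4, 17703 for Krt13, 3203 for Krt5, 2637 for Krt14 and 193 for Lor, and with CVs of 0.513 for Krt5 to 3.40 for Lor; their part in the results below was not tested. Of 9 measured skeletal muscle markers, 2 were detected, Myh2 with 44.1 and Tnnt3 with 17.9 fragments, both at loci shared with other genes.

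Promoter sequence was a feature that the choice of members did not use. RefSeq promoter windows on GRCm38.p6, from 250 bases before to 50 bases after the gene start, were matched for 67 of the 81 subunit genes. Each was searched on both strands for 4 motifs. The first was the 10-base consensus of nuclear respiratory factor 1 (NRF1), with 1 position free, which reads nearly alike on both strands, so that its matches can overlap. The ETS motif was CCGGAAG, the core bound by GABP, also called nuclear respiratory factor 2. The YY1 motif was AAGATGGC. The TATA box was searched as TATAAA. NRF1, GABP and YY1 are textbook regulators of respiratory chain genes. An NRF1 match was in 23.9% of the 67 promoters (16), an ETS match in 22.4% (15) and a YY1 match in 13.4% (9). Over 5632 protein-coding genes at detected loci of 1 gene symbol these shares were 10.1%, 16.9% and 4.28%, and over all 17492 protein-coding genes they were 6.60%, 11.9% and 3.22%. At least 1 of the 3 motifs was in 52.2% of subunit promoters, against 28.1% and 19.6% in those gene sets. The complexes differed: at least 1 of the 3 was in 17 of 32 promoters of complex I, 3 of 3 of complex II, 3 of 5 of complex III, 3 of 13 of complex IV and 9 of 14 of complex V. Complex IV, with 23.1%, thus lay below the 28.1% of genes at detected loci of 1 gene symbol. It lay above the 19.6% of all protein-coding genes. Its 13 promoters include those of Cox7a1, Cox7b2 and Cox8b, which were not detected and had none of the 3 motifs. The 28.1% covers detected genes only and is thus over an unlike set. The NRF1 share of complex IV was 7.69% (1 of 13, Cox6a1) and its YY1 share 0%. The ETS share of complex I, 12.5%, lay below the 16.9% of genes at detected loci of 1 gene symbol. The TATA box was in 10.5% of subunit promoters, against 7.94% and 13.3%.

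**Figure D1:**
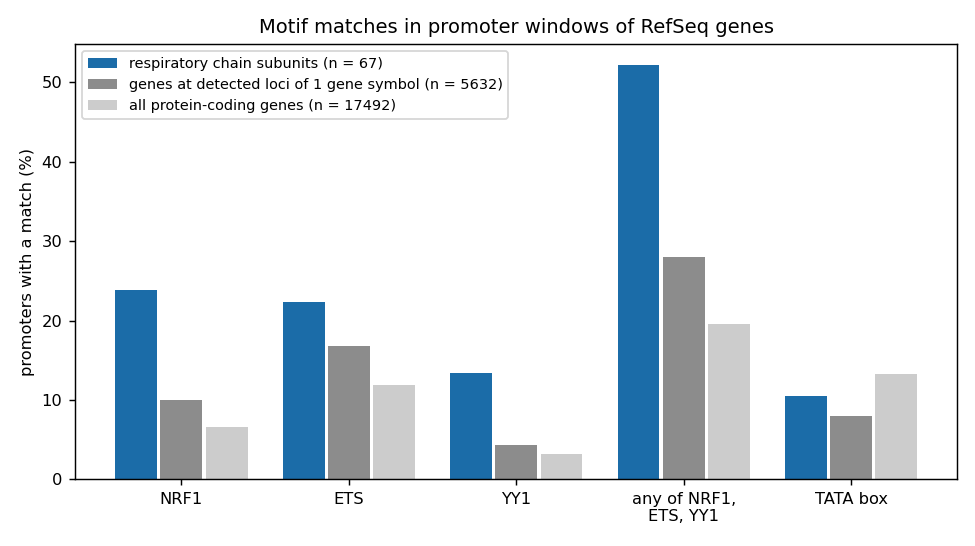
Percentage of promoter windows (vertical axis) with at least 1 match to each motif, for the 67 respiratory chain subunits, 5632 protein-coding genes at detected loci of 1 gene symbol and all 17492 protein-coding genes. The subunits stand highest for NRF1, ETS, YY1 and any of these 3, with 52.2% for the last.

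The YY1 matches lay close to the gene start. All 9 began between 3 bases before and 39 bases after the gene start. Except for that of Atp5f1, they lay on the gene's strand and began 23 to 39 bases after the start. The searched letters AAGATGGC contain ATG, and overlap with translation starts was not tested. Among promoters with a YY1 match, 62.7% of 241 at detected loci of 1 gene symbol and 55.9% of 564 over all protein-coding genes had one that began no further than 10 bases before the start, a limit chosen after the positions were seen. Complex I supplied 7 of the 9: Ndufa3, Ndufa9, Ndufb8, Ndufc1, Ndufs4, Ndufs6 and Ndufs7. The other 2 were Atp5f1 and Atp5j2. NRF1 matches were spread from 191 bases before to 31 bases after the start. A match describes letters in these windows and not binding.

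Below are 1 promoter of each complex that carries matches and, as a pair, the promoters of the general Cox8a and the heart and muscle form Cox8b, whose levels lay at opposite ends. Sequences run 5′ to 3′ on the gene's strand, with motif letters of either strand in capitals, so that ETS appears here as its reverse complement. Ndufs6 has NRF1 and YY1 matches, Sdhd and Atp5h have NRF1 and ETS, Uqcrc1 has NRF1, Cox6a1, the single complex IV promoter with an NRF1 match, has NRF1 and ETS, Cox8a has 2 ETS matches and Cox8b has a TATA box match 5 bases after its start.
Ndufs6 (chr13:73328433-73328732, minus strand): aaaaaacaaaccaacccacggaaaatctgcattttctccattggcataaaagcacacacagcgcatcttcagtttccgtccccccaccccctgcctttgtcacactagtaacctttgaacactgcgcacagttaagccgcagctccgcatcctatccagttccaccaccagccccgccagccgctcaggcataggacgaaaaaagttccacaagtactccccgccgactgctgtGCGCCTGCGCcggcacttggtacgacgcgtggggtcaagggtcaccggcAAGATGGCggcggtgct
Sdhd (chr9:50603800-50604099, minus strand): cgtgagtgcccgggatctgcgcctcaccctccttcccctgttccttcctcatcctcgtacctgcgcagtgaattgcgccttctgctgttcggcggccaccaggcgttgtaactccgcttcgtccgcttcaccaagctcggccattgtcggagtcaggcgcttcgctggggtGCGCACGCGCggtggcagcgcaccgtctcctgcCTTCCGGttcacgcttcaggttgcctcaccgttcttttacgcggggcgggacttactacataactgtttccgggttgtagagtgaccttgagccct
Uqcrc1 (chr9:108936398-108936697, plus strand): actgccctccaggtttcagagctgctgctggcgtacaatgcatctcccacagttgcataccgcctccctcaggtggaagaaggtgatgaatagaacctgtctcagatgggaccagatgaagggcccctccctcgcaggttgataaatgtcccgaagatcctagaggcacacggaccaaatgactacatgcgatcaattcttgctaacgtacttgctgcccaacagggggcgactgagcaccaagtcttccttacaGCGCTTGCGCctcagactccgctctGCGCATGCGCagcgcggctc
Cox6a1 (chr5:115348909-115349208, minus strand): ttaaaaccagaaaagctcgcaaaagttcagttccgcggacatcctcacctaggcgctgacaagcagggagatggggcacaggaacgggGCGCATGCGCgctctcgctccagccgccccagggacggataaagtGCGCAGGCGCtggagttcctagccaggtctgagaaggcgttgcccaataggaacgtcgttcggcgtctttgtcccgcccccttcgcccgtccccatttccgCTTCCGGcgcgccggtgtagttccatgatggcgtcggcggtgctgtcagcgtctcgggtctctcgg
Atp5h (chr11:115419870-115420169, minus strand): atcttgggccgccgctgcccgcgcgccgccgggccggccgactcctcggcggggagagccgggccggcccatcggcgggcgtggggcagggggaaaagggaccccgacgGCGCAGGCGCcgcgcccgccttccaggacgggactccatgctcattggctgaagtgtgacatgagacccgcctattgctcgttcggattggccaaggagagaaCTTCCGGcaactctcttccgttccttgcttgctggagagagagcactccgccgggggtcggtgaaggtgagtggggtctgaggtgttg
Cox8a (chr19:7217567-7217866, minus strand): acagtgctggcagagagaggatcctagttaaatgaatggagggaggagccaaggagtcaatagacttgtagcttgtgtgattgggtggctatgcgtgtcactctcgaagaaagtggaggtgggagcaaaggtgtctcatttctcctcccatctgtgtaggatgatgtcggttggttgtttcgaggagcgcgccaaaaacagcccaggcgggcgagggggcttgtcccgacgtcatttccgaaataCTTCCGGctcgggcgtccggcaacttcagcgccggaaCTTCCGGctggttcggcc
Cox8b (chr7:140900397-140900696, minus strand): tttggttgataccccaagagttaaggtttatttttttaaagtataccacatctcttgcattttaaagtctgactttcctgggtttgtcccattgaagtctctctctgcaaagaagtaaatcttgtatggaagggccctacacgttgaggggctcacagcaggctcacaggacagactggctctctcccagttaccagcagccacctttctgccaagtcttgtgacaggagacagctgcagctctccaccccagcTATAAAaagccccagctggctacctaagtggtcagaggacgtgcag

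By the mean of at least 10 compatible fragments, 80 of 86 members were detected, and 75 of the 81 subunits, against 13467 of all 32052 loci. Of the 80, 29 lay at loci shared with other symbols, where the member's own level is unknown. The 6 members below it all belonged to complex IV: Cox4i2, Cox6a2, Cox7a1, Cox7b2, Cox8b and Cox8c. Detected members at loci of 1 gene symbol numbered 51, of which 47 were subunits; the medians by complex rest on these 47. They held 0.398% of all compatible fragments. Their compatible share, the compatible over the total level, had a median of 97.4%, against 95.5% over 8696 detected loci of 1 gene symbol.

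Levels of different genes were compared per kb of the longest reference transcript. Complex I had the lowest median, 942 fragments per kb over 23 subunits, and it also had the lowest median under each of the 10 other settings that gave one. Medians were 1984 per kb for the 3 subunits of complex II, 1671 for 5 of complex III, 2457 for 8 of complex IV and 1754 for 8 of complex V. The order of complexes II to V depended on the transcript length used. By the principal coding transcript, a length chosen after the values were seen, the medians were 1007, 2140, 2493, 2304 and 2266 per kb for complexes I to V. Neither length was corrected for fragment size, which weighs most on short transcripts.

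**Figure D2:**
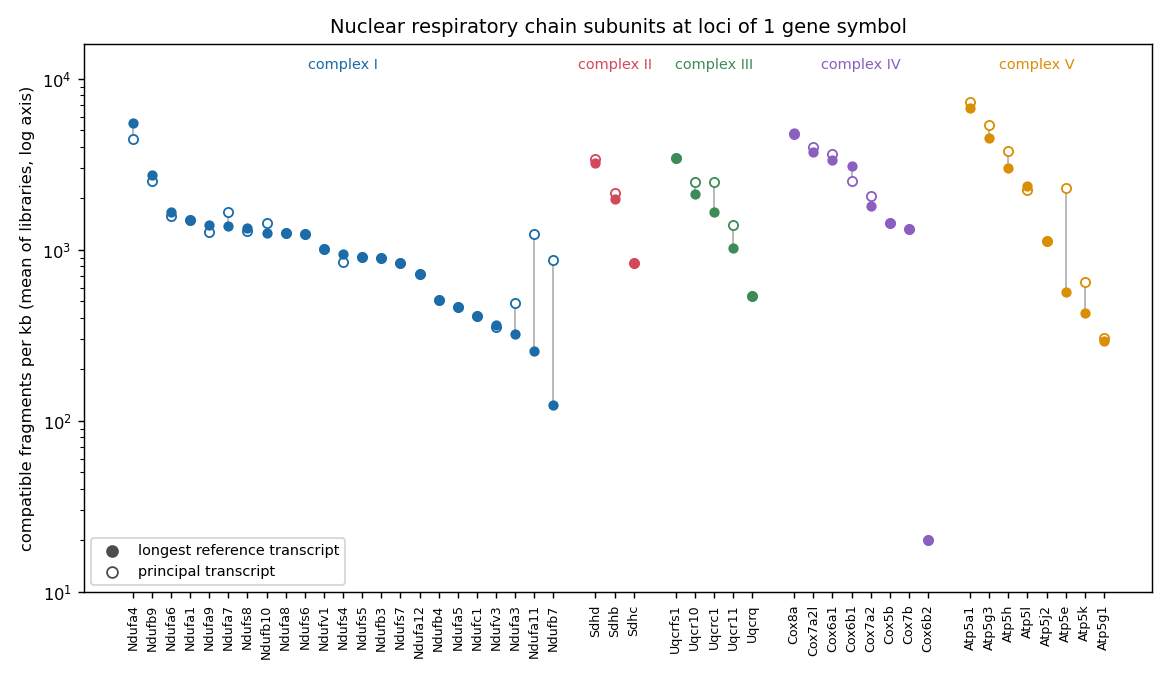
Compatible fragments per kb (log axis, mean of 21 libraries) for the 47 detected subunits at loci of 1 gene symbol, grouped by complex. Filled points use the longest and open points the principal transcript. Complex I sits lowest, and Atp5a1 is highest with 6767 per kb of its longest transcript.

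In complex I, the entry point for NADH electrons, Ndufa4 stood highest with 2698 ± 416 fragments (SD within sets, n = 21 libraries, as for each SD below) or 5484 per kb (chromosome 6, 11900373 to 11907446, GRCm38). Ndufa4 was named as a complex I subunit and is now assigned to complex IV. Ndufb9, of the membrane arm, followed with 2738 per kb from 1782 ± 292 fragments (chromosome 15, 58933810 to 58939489). The lowest per kb were Ndufb7 with 123 and Ndufa11 with 255, both through a long reference transcript. Per kb of the principal transcript they had 876 and 1247, and Ndufv3, an accessory subunit of the NADH arm, was then lowest with 352. Ndufa4 was highest by both lengths.

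Of the catalytic core of complex I, 3 nuclear-encoded subunits had a locus of their own. Ndufv1, which binds NADH and FMN, had 1673 ± 200 fragments or 1007 per kb. Ndufs7, the iron-sulphur subunit nearest ubiquinone, had 828 ± 169 or 843 per kb. Ndufs8, another iron-sulphur subunit, had 1294 ± 205 or 1344 per kb. The 20 other single-gene subunits of complex I had a median of 928 per kb and ran from 123 to 5484, a range that holds the 3 core values. Among core subunits at shared loci, the Ndufs1 locus held 11 symbols, that of Ndufs3 held 4 and that of Ndufv2 held 2.

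Complex II, which is also the succinate dehydrogenase of the citric acid cycle, is the one complex made wholly from nuclear genes. Sdhd, a membrane anchor, had 4172 ± 324 fragments or 3242 per kb (chromosome 9, 50596338 to 50603849). Sdhb, the iron-sulphur subunit, had 2444 ± 413 or 1984 per kb (chromosome 4, 140961203 to 140979193). Sdhc, the other anchor, had 2663 ± 189 or 840 per kb of a long transcript (chromosome 1, 171127165 to 171150603). Per kb of the median reference transcript length Sdhc had 3267, against 3242 for Sdhd and 2140 for Sdhb, so the order of the 3 depended on the length used. Sdha, the flavoprotein, had 8845 ± 742 fragments or 3050 per kb at a locus shared with the noncoding symbol Gm16125.

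In complex III, Uqcrfs1, the Rieske iron-sulphur protein, stood highest with 4681 ± 468 fragments or 3434 per kb (chromosome 13, 30540308 to 30545362). The core protein gene Uqcrc1 had 4131 ± 425 fragments or 1671 per kb. Small accessory subunits were Uqcr10 with 1082 ± 221 fragments (2121 per kb), Uqcr11 with 621 ± 130 (1026 per kb) and Uqcrq with 818 ± 171 (538 per kb). Per kb, Uqcr10 thus stood among the larger subunits and Uqcrq lowest of the 5. Uqcrb, at a locus of 4 symbols, Uqcrc2, shared with Pdzd9, and Uqcrh, shared with Gm12854, had 5375, 8646 and 2566 fragments that cannot be given to 1 gene.

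Complex V held the most abundant members. Atp5a1, the alpha subunit of the catalytic F1 head, had 18094 ± 1126 fragments or 6767 per kb (chromosome 18, 77773729 to 77782869). Atp5b, the catalytic beta subunit, had 27238 ± 1698 fragments or 14216 per kb at a locus it shares with Mir677 and Gm25206, neither of them protein-coding. Atp5e, the epsilon subunit of the same head, had 968 ± 184 fragments, which is 570 per kb of its longest and 2299 per kb of its principal transcript.

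The c subunit, which forms the rotating ring, comes from 3 genes. Atp5g3 had 3904 ± 500 fragments or 4528 per kb (chromosome 2, 73908447 to 73911326). Atp5g2 had 1429 ± 221 or 1898 per kb (chromosome 15, 102662864 to 102672352), and Atp5g1 had 1439 ± 206 or 293 per kb of a long transcript (chromosome 11, 96068852 to 96075670). Atp5g3 led both by fragments and per kb. Other membrane and stalk subunits were Atp5h (d) with 3020 per kb, Atp5l (g) with 2377, Atp5j2 (f) with 1132 and Atp5k (e) with 425. Atp5o, which encodes the stalk protein OSCP, lay in a locus of 10 symbols. The Atp5j locus, 4745 ± 399 fragments, also held Gabpa, a subunit of GABP.

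Complex IV is where vertebrates have tissue forms of subunits. In the Cox6a, Cox6b, Cox7b and Cox8 groups, 1 form had at least 1325 fragments and the others had at most 11.7. Cox6a1 had 2077 ± 379 fragments or 3349 per kb, and its heart and skeletal muscle form Cox6a2 had 0.554 ± 1.09 or 0.842 per kb at a locus shared with Itgad. Cox8a had 2620 ± 456 fragments or 4807 per kb, while Cox8b, the heart and muscle form, was listed at 0 in compatible and total fragments. Cox8c, a testis form, was listed at 0 compatible and 8.70 total fragments. The muscle forms Cox6a2 and Cox8b were thus at or near 0. The muscle markers with a locus of their own, Myh4, Tnni2 and Actn3, summed to 11.0 fragments. Myh2 and Tnnt3, at loci shared with other genes, had 44.1 and 17.9. In such bulk RNA, fewer cells of a type and less RNA per cell cannot be told apart.

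Cox6b1 had 1569 ± 179 fragments or 3107 per kb, and the testis form Cox6b2 had 11.7 ± 5.60 or 20.0 per kb. Cox7a2 had 1363 ± 238 fragments or 1808 per kb. Cox7a2l, described as a supercomplex factor but not tested for that role in these mice, had 4287 ± 381 or 3737 per kb. Their heart and muscle relative Cox7a1 had 9.24 ± 4.94 compatible fragments but 139.7 in total, a compatible share of 6.61%. Most fragments at the Cox7a1 locus therefore did not match its transcript. Cox7b had 1325 ± 235 fragments or 1324 per kb, and Cox7b2 had 6.36 ± 4.58 or 11.7 per kb. Cox5b, which has no such partner, had 1251 ± 240 fragments or 1446 per kb. Cox4i2, a form known from lung, had 0.620 ± 1.22, and no comparison with a paralogue was made for it.

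Near the detection limit lay Cox6b2, with 11.7 fragments, just inside it, and Cox7a1, with 9.24, just outside. Ndufa4l2, the paralogue of Ndufa4, which hypoxia induces in other cells, lay at a locus with 549 ± 180 fragments that also holds Shmt2, so its own part is unknown.

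**Figure D3:**
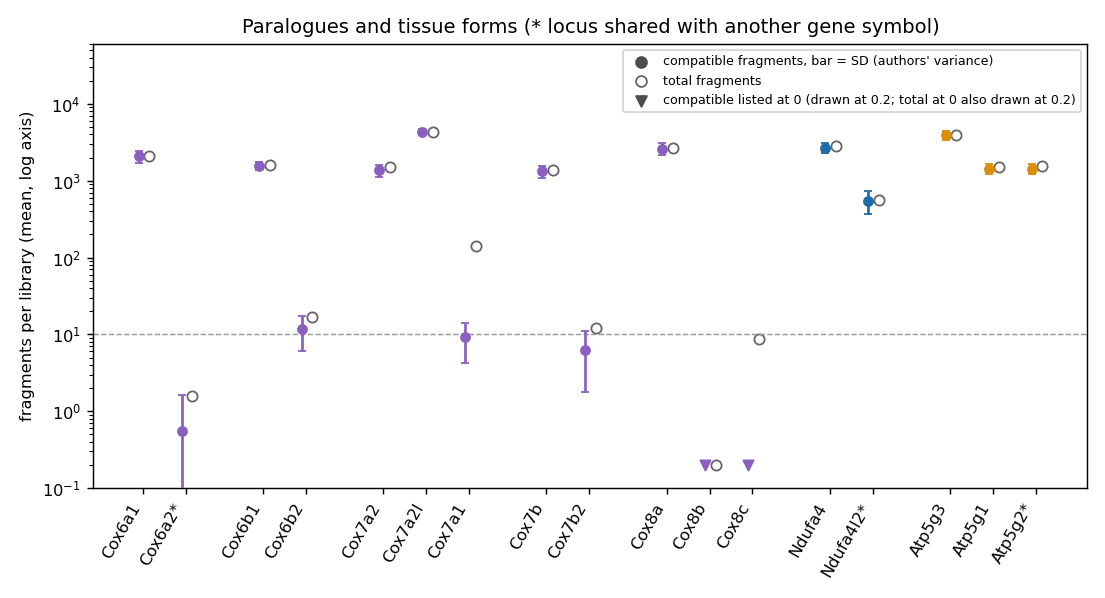
Mean fragments per library (log axis) of paralogue groups, with compatible levels as filled points with the SD from the authors' variance and total levels as open points; the dashed line marks 10 fragments. In complex IV the muscle and testis forms lie at or below 11.7 compatible fragments, against at least 1325 for the general forms.

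Over the 47 subunits the median CV was 0.166, with a range of 0.0622 for Atp5a1 to 0.479 for Cox6b2. The variance lay above the authors' fitted variance, the variance their model gives to a locus of that level, for 4 of the 51 detected members at loci of 1 gene symbol, or 7.84%. Among all 8696 detected loci of 1 gene symbol this was 27.6%. The 4 were Atp5j2, Atp5l, Cox6a1 and the pseudogene Atp5l2-ps, with log2 ratios of variance to fitted variance of 0.10, 0.06, 0.01 and 0.17. All of these lay close to the fitted value.

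The median log2 ratio over the 47 subunits was −0.94, against −0.62 over all detected loci of 1 gene symbol. Between 507 and 3995 fragments, a range that holds 37 of the 47 subunits, these 37 had a median CV of 0.169 and 3298 loci of 1 gene symbol had 0.165. In that range the log2 ratio had a median of −0.63 for the subunits and −0.71 for the loci. The 2 medians thus lay close together at like level. In the same range 3 of the 37 subunits lay above the fitted variance, against 22.3% of the loci.

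**Figure D4:**
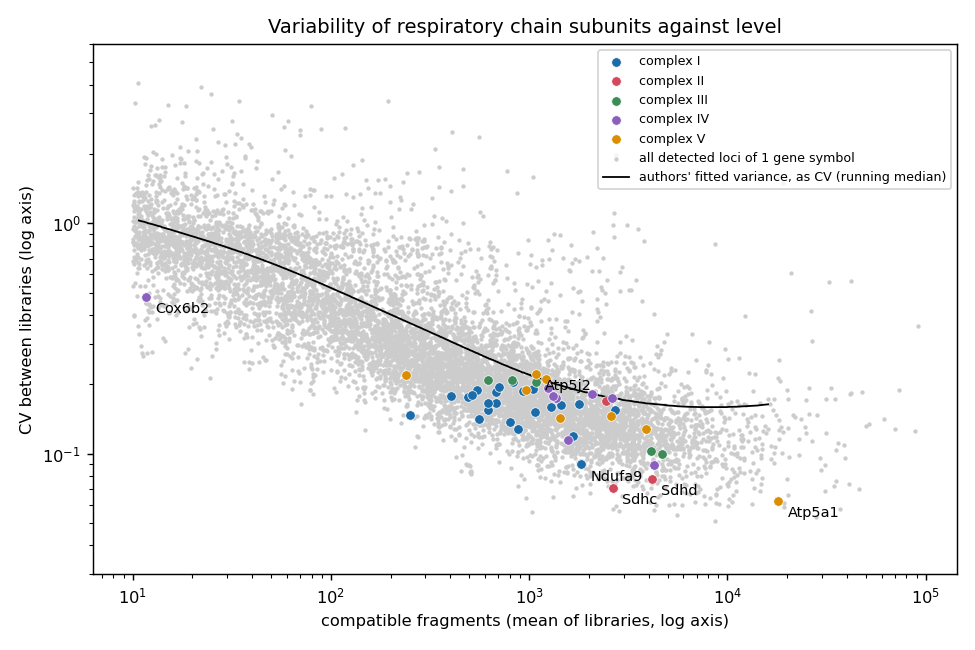
CV between libraries (within sets) against mean compatible fragments (both log axes) for the 47 subunits by complex and, in grey, all 8696 detected loci of 1 gene symbol. The line is the fitted variance expressed as a CV. All but 3 subunits lie below the line, with Sdhc, Sdhd and Atp5a1 lowest at CVs of 0.0709, 0.0776 and 0.0622.

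Median CVs were 0.164 for complex I, 0.0776 for complex II, 0.204 for complex III, 0.176 for complex IV and 0.168 for complex V. With loci of several gene symbols added they were 0.155, 0.0808, 0.137, 0.174 and 0.128, so complex II stayed lowest and complex III was no longer highest. In complex II, Sdhc and Sdhd were steady within sets of libraries while Sdhb had a CV of 0.169. In complex III, Uqcrfs1 and Uqcrc1 had CVs of 0.0999 and 0.103, and Uqcr10, Uqcr11 and Uqcrq had 0.204, 0.209 and 0.209. The large electron-carrying and core subunits of complex III were thus the steadier ones within sets, and they were also the more abundant. Complex I ran from 0.0898 for Ndufa9 to 0.204 for Ndufs7, and complex IV from 0.0889 for Cox7a2l to 0.479 for Cox6b2.

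A variance over 21 libraries limits how far 1 library can lie from the mean of its set, where a set is the group of libraries within which the variance was taken. At Atp5a1 that limit is 28.5% of the mean level, at Sdhc 32.5% and at Uqcr11 95.9%. A shift shared by a whole set would not enter it.

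Across the 47 genes, Spearman's rho was −0.51 between CV and principal transcript length and −0.59 between CV and level; genes share libraries and are no replicates, and length and level were themselves related with a rho of 0.41. Between 500 and 3000 fragments, 17 subunits of up to 700 bases had a median CV of 0.182, and all 54 loci of that length, members included, had 0.188. For 10 subunits of over 1000 to 2000 bases the median was 0.160, against 0.157 over 608 loci. For 7 subunits of over 700 to 1000 bases it was 0.192, against 0.164 over 105 loci, and for 2 of over 2000 bases it was 0.107, against 0.171 over 2051 loci.

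Many subunits have processed copies in the mouse genome, which bears on how fragments are assigned. A transcript of each of the 81 subunits was cut into words of 50 bases and compared with all other GENCODE M21 transcripts; the read length is not given in the sources used here. Words were shared with another gene of any type by 45 of 81 subunits, with a median shared portion of 1.24%. Not all of this was with processed copies: 22 subunits shared words with a protein-coding gene, as Ndufa2 did with Tmco6 at its own locus. The same share over all genes was not computed. Atp5g2, Atp5l and Cox7c shared over 50% of their words, 87.4%, 84.8% and 53.0%. Levels of these 3 genes are therefore uncertain, and those of Atp5g1 and Atp5g3, with 11.6% and 0% shared, less so. The 50% limit is not a sharp one. Atp5h shared 47.9%, Uqcrb 43.4%, Ndufs3 39.7% and Ndufb4 37.0%, so their levels are uncertain in the same way.

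Copies of complex V genes were themselves listed with fragments. Gm10175, a transcribed pseudogene that shares 87.4% of the words of Atp5g2, had 394 fragments with a CV of 0.259, and Gm10231, which shares 57.5%, had 173. Gm10221, which shares 52.5% of the words of Atp5l, had 239 fragments. Of the named Atp5l copies, Atp5l2-ps had 38.9 fragments with a CV of 0.771, Atp5l-ps1 had 13.1 ± 9.98, and Atp5l-ps2 had 74.8 ± 37.6 at a locus shared with Brip1. Of 14 pseudogene partners that share at least 10% of a member's words and have a locus of their own, 11 were detected. Whether those fragments come from the copies or the parent genes was not tested. The CVs of Atp5l2-ps and Atp5l-ps1, 0.771 and 0.763, were the highest among detected members.

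Of the 86 members, 30 shared a locus with another symbol, and 21 shared it with another protein-coding gene. A locus of 1 gene symbol was held by 51 of the 80 detected members and was found for 8696 of all 13467 detected loci. These portions lay close together, so sharing a locus was not particular to the members. At 9 loci the member was the sole protein-coding gene, as with Atp5b, Sdha and Uqcrh. Detected members at shared loci had a median CV of 0.115, and 1 of 29 lay above the fitted variance, the Ndufa4l2 and Shmt2 locus at a log2 ratio of 0.54. Among all 13467 detected loci the share above it was 26.1%, but these include the 8696 of 1 gene symbol and were not matched for level.

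Newly assembled isoforms were counted too. Of the 47 subunits, 13 had a transcript in the merged annotation that was not in the reference, with 5 at Ndufv1 and 3 at Uqcrc1. The share over all loci was not computed, so whether 13 is many or few is open. Atp5s, which encodes coupling factor B, had 466 ± 92.9 fragments or 314 per kb, and Atp5sl, linked to complex I assembly, had 431 ± 75.1 or 180 per kb.

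A list of 6 further genes held subunits whose names fall outside the rule, besides Cycs and Atpif1, which are not subunits of the complexes. All 6 of the list were detected, 4 at loci of their own. Above the fitted variance were 0 of the 4, against 27.6% of all detected loci of 1 gene symbol. Cyc1, the cytochrome c1 of complex III, had 2422 fragments with a CV of 0.0787, and Cycs, the mobile cytochrome c, had 2788 with a CV of 0.145. Ndufab1, the acyl carrier protein of complex I, had 1122 with a CV of 0.140.

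Genes for assembly factors, which build the complexes without staying in them, were lower than the subunits. Of 46 listed, 43 were measured and 43 detected, 23 at loci of their own. For those at shared loci the factor's own level is unknown. Per kb of the principal transcript the 47 subunits had a median of 1324 fragments, against 288 for these 23 factors; the difference was not tested. Tmem70, needed for ATP synthase assembly, had 1225 per kb, Uqcc2 of complex III assembly had 796, and Bcs1l, which inserts the Rieske protein, had 88.2. Above the fitted variance were 3 of the 23: Acad9 at a log2 ratio of 0.59, Bcs1l at 0.40 and Coa5 at 0.16. That is 13.0%, against 27.6% of all detected loci of 1 gene symbol, not matched for level.

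The 13 protein-coding genes of mitochondrial DNA all lay at loci of several symbols, so no level per gene can be given. The locus that holds mt-Co1 and mt-Nd5 among others had 602776 fragments, that of mt-Nd1 and mt-Nd2 had 240665 and that of mt-Cytb had 194494.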

How the data were processed

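RNA from circumvallate taste buds was sequenced as 21 libraries. The submitters' processing notes name the build GRCm38.p4 and the tools Bowtie2, TopHat, Cuffdiff, Cufflinks, FastQC and Trimmomatic, without versions, order or settings. For each locus the authors deposited a signal, the mean number of fragments after scaling for library size, and beside it a variance and a fitted variance, per the file headers; none is divided by length. Library preparation used oligo(dT) priming, per the labels' protocols.

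Loci with fragments in 1 library gave variance over squared mean values of 18.375, 18 and 17.5 at 474, 667 and 454 loci (relative tolerance 0.0001), the values that sets of 8, 7 and 6 libraries would give if each variance were divided by 21. A CV thus holds no spread between sets. The sizes 8, 7 and 6 differ from the 7 libraries of each labelled group, so the sets cannot all be the labelled groups. Which set is which condition is unknown.

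Merged exons were placed in loci by position. Lengths came from reference transcripts in the merged annotation (the longest, in the main setting) and, as principal transcripts, from GENCODE M21 on GRCm38. One promoter window per gene was used, the first that RefSeq's table lists; overlapping matches on both strands count as 1 promoter. Named genes were, per complex at loci of 1 gene symbol, the 2 highest and 2 lowest per kb, the extremes of CV and all above the fitted variance, besides paralogues and members not detected; others were chosen after their values were seen. Members and lists were chosen with earlier results of these data known. One item is not reported here by name. No test was run, since the table holds 1 pooled value per locus. Alternatives were other detection levels, lengths, total fragments, shared loci and a running median over 101 loci. The variance step was tested on simulated data and the union of exon lengths on fixed intervals. The longest and principal lengths were not tested in this way. Computation used pandas 2.3.3 and numpy 2.4.6 under Python 3.11.15, and plots used matplotlib 3.10.9.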

Additional observations from a re-analysis of the deposited data

How the results depend on the processing

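Of 113 alternative values for 19 results, 83 stayed close to the main value, 30 moved and 0 reversed. Levels per kb counted as moved past 1 median CV; counts and CVs counted as moved past a factor of 1.5. Detection covered 77 to 82 members, and median CVs and compatible shares stayed within a factor of 1.5 under each setting run, though the order of the median CVs changed with loci of several symbols added. Members above the reference variance numbered 23 with a running median and 22 by total fragments (which also used a running median), against 4; about 50% of loci lie above a running median by its construction, 49.7% and 50.2% here. The median log2 ratio was then −0.27 and −0.35, against medians of 0 and 0.01 over loci of 1 gene symbol.

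Of the moved values, 26 were median fragments per kb. With the median reference transcript length they were 1249, 3242, 2493, 3225 and 2338 for complexes I to V. With union exon length they were 723, 1092, 999 and 1322 for complexes I, II, III and V. With the principal transcript they were 2140, 2493 and 2266 for complexes II, III and V. With 200 bases taken off they were 1212, 2368, 3494 and 2669 for complexes I, II, IV and V. With loci of several symbols added they were 1209, 2517, 2662 and 3090 for complexes I, II, III and V. With loci of no other protein-coding gene they were 2517 for complex II and 2377 for complex V. Complex IV had 1627 with detection at 1 fragment, 3107 with detection at 50, 1745 by total fragments and 3107 with Ndufa4 placed in it. The lengths, sets and detection themselves make these changes. The principal transcript, the 200 bases, loci of no other protein-coding gene and Ndufa4 in complex IV were chosen after the data were seen. At least 1 of 3 promoter motifs was in 54.7% of detected subunits and 62.8% of those at loci of 1 gene symbol.

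No paired analysis was possible because the table holds 1 pooled mean and variance per locus, so leaving out a library or using the replicate number as a block could not be run either. Depth limits little here except for members near 10 fragments; no interval from counts was made.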

Other observations

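Genes of the citric acid cycle, which feeds the chain with NADH and succinate, were all detected, 14 of 14, with 9 at loci of their own. Of these 9, 1 lay above the fitted variance, Idh2 at a log2 ratio of 0.15. That is 11.1%, against 27.6% of all detected loci of 1 gene symbol. Mdh2, the mitochondrial malate dehydrogenase, had 8215 fragments with a CV of 0.0643 or 5642 per kb of its principal transcript. Dld, a subunit shared by several mitochondrial dehydrogenase complexes, had 5418 with a CV of 0.105. The 9 genes had a median of 1527 per kb and a median CV of 0.116.

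Loci of all 13 listed regulators of mitochondrial biogenesis were detected, with 4 at loci of their own. At the shared loci the regulator's own level is unknown. Above the fitted variance were 0 of the 4, against 27.6% of all detected loci of 1 gene symbol. Ppargc1a, a coactivator of these genes in muscle and brown fat, had 171 fragments with a CV of 0.362 or 26.5 per kb. Tfam, which packages and transcribes mitochondrial DNA, had 1652 with a CV of 0.108, Yy1 had 2565 with a CV of 0.153, and Polrmt, the mitochondrial RNA polymerase, had 294 with a CV of 0.291. Nrf1 had 509.7 fragments at a locus of 2 symbols.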
